A study of Mus musculus with 16 samples.

Results

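Collagens and the enzymes that remodel them were followed in white and brown fat of mice with and without the glucocorticoid receptor in adipose tissue. The members were all genes whose symbol is that of a collagen chain (Col followed by its type and chain), a lysyl oxidase (Lox, Loxl1 to Loxl4), a matrix metalloproteinase (MMP), a tissue inhibitor of metalloproteinases (TIMP) or an ADAMTS protease. RefSeq lists 95 such genes, 92 had a named probe on the array, and 79 of the 15469 genes tested were members. Those 79 comprised 40 of 44 collagen genes on the array, 4 of 5 lysyl oxidases, 14 of 21 MMPs, all 4 TIMPs and 17 of 18 ADAMTS proteases.

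The study measured total RNA of male mice on 16 one-colour Agilent arrays, 4 in each of 4 groups. CTL_WAT and CTL_BAT were white and brown fat of wild-type mice, and AdipoKO_WAT and AdipoKO_BAT were the same tissues of mice in which GR, the glucocorticoid receptor encoded by Nr3c1, was knocked out specifically in adipose tissue. The labels list no treatment. The arrays lay on 5 slides, numbered here from 1: CTL_WAT on slides 1 and 2, AdipoKO_WAT on 2 and 3, CTL_BAT on 3 and 4 and AdipoKO_BAT on 4 and 5. The age and strain of the mice, the fat depots, the exon deleted and the promoter that drives the deletion are not given in the sources used here, so the cells that lost the receptor are not known beyond the word adipose.

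Fat is held together by a matrix in which fibrillar collagens give tensile strength, type IV collagen forms the basement membrane around each adipocyte and vessel, and type VI collagen forms beaded filaments between them. Lysyl oxidases cross-link the chains outside the cell. MMPs and ADAMTS proteases cut matrix proteins, and TIMPs inhibit those proteases. Glucocorticoids are known to lower collagen synthesis in skin and to repress several MMP genes through the transcription factor AP-1.

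Promoter sequences were read to show what the members share in the bases next to their start sites. RefSeq promoter windows (build GRCm38.p6, 250 bases before to 50 bases after a start) were present for 68 members, in 74 windows of 32851 in all. An AP-1 site (TGANTCA, a palindrome and so the same on both strands) was found in 9 of 74 member windows and in 7.81% of all windows. Of the 21 MMP windows, 8 held it (38.1%), and 10 held the TATA box TATAAA on either strand (47.6%, against 13.6% of all windows). All 8 with AP-1 were of neighbouring genes in 1 cluster on chromosome 9, and no MMP window outside it held the site. They were Mmp1a, Mmp1b, Mmp3, Mmp7, Mmp10, Mmp12, Mmp13 and Mmp20. Of these, Mmp1a, Mmp1b, Mmp12 and Mmp20 were not among the genes tested. Of the 38 collagen windows, 1 held the AP-1 letters (2.63%), 13 held CCAAT on either strand (34.2%, against 37.4% of all) and 23 held the GC box GGGCGG on either strand (60.5%, against 35.7%). The consensus palindrome of the glucocorticoid receptor, in its strict form, was in 3 windows of all genes and in 0 of 74 member windows, which says only that these letters are not there. The 4 MMP promoters below belong to that cluster of MMP genes on chromosome 9 and are shown as 100 bases before the start, with the AP-1 and TATA letters in capitals. Mmp3 (stromelysin 1) stretches over chr9:7445722-7445821, Mmp13 (collagenase 3) over chr9:7272414-7272513, Mmp10 (stromelysin 2) over chr9:7502242-7502341 and Mmp7 (matrilysin) over chr9:7691990-7692089, all on the plus strand.
Mmp3: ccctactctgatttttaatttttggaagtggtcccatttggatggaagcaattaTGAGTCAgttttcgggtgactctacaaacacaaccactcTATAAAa
Mmp13: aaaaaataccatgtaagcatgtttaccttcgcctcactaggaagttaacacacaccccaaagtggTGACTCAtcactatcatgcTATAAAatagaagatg
Mmp10: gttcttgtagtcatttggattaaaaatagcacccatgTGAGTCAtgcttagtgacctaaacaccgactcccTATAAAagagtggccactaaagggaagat
Mmp7: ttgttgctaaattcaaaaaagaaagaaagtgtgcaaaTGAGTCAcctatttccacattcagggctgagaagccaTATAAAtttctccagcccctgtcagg

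Timp4 and Col5a3 are shown next, as 150 bases before the start, because they were among the members with the lowest unadjusted p in white fat. Timp4 (chr6:115252206-115252355, minus strand) held none of the motifs searched and is all in lower case. Col5a3 (chr9:20815068-20815217, minus strand) has CCAAT and, on the opposite strand, the GC box in capitals.
Timp4: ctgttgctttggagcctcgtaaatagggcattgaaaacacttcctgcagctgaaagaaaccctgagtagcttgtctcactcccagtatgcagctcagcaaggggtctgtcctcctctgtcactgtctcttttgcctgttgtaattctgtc
Col5a3: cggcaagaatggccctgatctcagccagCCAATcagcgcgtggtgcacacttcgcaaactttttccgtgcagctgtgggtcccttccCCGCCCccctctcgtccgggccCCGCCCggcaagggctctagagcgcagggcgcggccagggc

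A level below is the log2 processed intensity of a gene's brightest probe minus the 75th percentile of its array, so 0 is as bright as that percentile, and levels of different genes are not compared because probes differ. Arrays of a group that differed by less than the scanner's spot error were averaged, which left 9 distinct samples (CTL_WAT 1+4 and 2+3, AdipoKO_WAT 1 and 2+3+4, CTL_BAT 1, 2+3 and 4, AdipoKO_BAT 1 and 2+3+4), and values are listed in that order. The arrays had from 67.3% to 77.0% of 43379 spots well above background and 0 saturated spots, and the small number of samples limits the precision. Nr3c1 lay at 2.49 and 2.21 in white control, 1.58 and 1.34 in white knockout, 2.53, 2.69 and 2.34 in brown control and 1.57 and 1.76 in brown knockout. It was lower in both knockout groups, by -0.89 ± 0.23 (SE) in white and -0.85 ± 0.21 in brown fat, without passing the limma test (adjusted p = 0.415 and 0.619); whether its probe lies in the deleted part is not known. The sample CTL_BAT 2+3 went against its label in part: Ucp1, the uncoupling protein that defines brown fat, lay at 6.61, -0.75 and 8.13 in the brown controls, 5.70 and 5.87 in brown knockout and between -2.44 and -0.92 in white fat, while Cox7a1 was high in all brown samples. Skeletal muscle markers were also high in all brown samples: their 7 intensities, in units of the array's 75th percentile, summed to 2016 to 2615 in CTL_BAT and 1170 to 1823 in AdipoKO_BAT, against 19.1 to 23.4 in CTL_WAT and 8.06 to 22.4 in AdipoKO_WAT.

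In white fat the matrix genes lay mostly lower in the knockout, but the lower levels came largely from 1 of the 2 knockout samples. Of the 79 members, 53 had a lower mean in AdipoKO_WAT than in CTL_WAT, where 52.3% of all genes did. The median difference was -0.49 against -0.032 over all 15469 genes. All 4 knockout arrays lay below all 4 control arrays in 27 members, where 18.3% of all genes did, and above them in 8 members, where 11.1% did. No member passed the limma test at an adjusted p of 0.05 (0% of all genes passed), and the lowest adjusted p was 0.302. At an unadjusted p under 0.05, 11 members were lower and 1 was higher, compared with 988 and 552 of all genes. Against the control mean, the median member lay at -0.042 in AdipoKO_WAT 1 and at -0.95 in AdipoKO_WAT 2+3+4. In AdipoKO_WAT 1, 43 of 79 members were below the control mean, 57 were in AdipoKO_WAT 2+3+4 and 35 were in both. Without AdipoKO_WAT 1 limma called 26 members, all lower, and 11.0% of all genes; AdipoKO_WAT 2+3+4 then stands alone in its group and is assumed to vary like the samples of the other groups.

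In brown fat the members also lay lower in the knockout, and there the median member lay at similar levels in both knockout samples. Of 79 members, 62 had a lower mean in AdipoKO_BAT than in CTL_BAT, where 59.9% of all genes did. The median difference was -0.48 against -0.12 over all genes. The median member lay at -0.42 in AdipoKO_BAT 1 and -0.52 in AdipoKO_BAT 2+3+4, where the controls lay at -0.13, -0.050 and 0.23. Single families differed more between the knockout samples: the median of the ADAMTS proteases was -0.053 in AdipoKO_BAT 1 and -0.58 in AdipoKO_BAT 2+3+4, and that of the basement membrane collagens -0.40 and -0.92. All knockout arrays lay below all control arrays in 26 members (16.5% of all genes) and above them in 1 member (11.4% of all genes). No member passed the limma test (0% of all genes), with a lowest adjusted p of 0.619, and at an unadjusted p under 0.05 10 members were lower and 1 was higher, against 636 and 453 of all genes. Without CTL_BAT 2+3, 32 members had all knockout arrays below all control arrays (23.6% of all genes) and the median difference was -0.54. Without CTL_BAT 4 the values were 29 members (23.5%) and -0.30, and without CTL_BAT 1 they were 34 members (22.6%) and -0.50. A lower mean was found in 58 members without CTL_BAT 4, where 57.5% of all genes had one. The collagen median was highest in that control, at -0.22, -0.14 and 0.31 in CTL_BAT 1, 2+3 and 4. In bulk tissue, fewer cells of a type and less RNA per cell cannot be told apart.

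**Figure D1:**
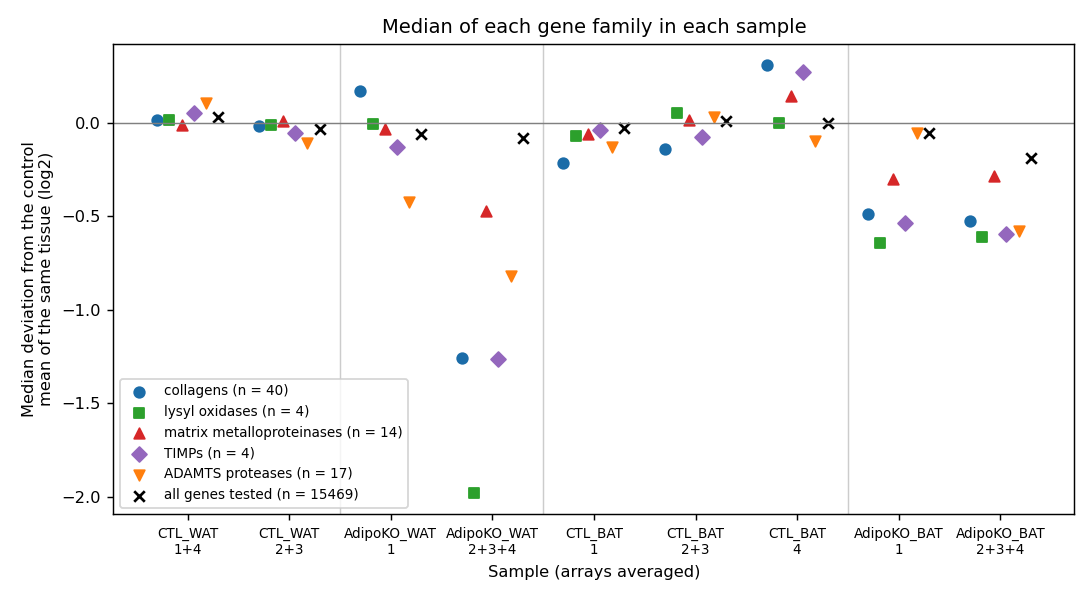
Median deviation of each gene family from the control mean of the same tissue (log2, vertical axis) in each of the 9 samples (horizontal axis), with 1 colour and marker shape per family and black markers for all 15469 genes. In AdipoKO_WAT 2+3+4 lysyl oxidases lay at -1.98, TIMPs at -1.26 and collagens at -1.26, while in AdipoKO_WAT 1 collagens lay at 0.17; both brown knockout samples had collagens near -0.5.

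Several lists of cell type markers also differed in the knockout samples, not all in the members' direction, and their part in the members' differences was not tested. In AdipoKO_WAT 2+3+4 the median of 10 fibroblast and progenitor markers lay at -1.51 from the control mean, of 8 adipocyte markers at -1.69, of 8 mesothelial markers at -3.71 and of 10 lymphocyte markers at 3.18. In AdipoKO_WAT 1 the same lists lay at -0.34, -0.093, 0.033 and -0.32, and smooth muscle and pericyte markers at 2.83. In AdipoKO_BAT 1 the fibroblast, adipocyte, mesothelial and lymphocyte lists lay at -0.31, -0.17, -0.98 and 2.74. In AdipoKO_BAT 2+3+4 they lay at -0.55, -0.48, -1.29 and 4.63. The 8 macrophage markers lay at -0.83 in AdipoKO_WAT 1, 0.49 in AdipoKO_WAT 2+3+4, -0.82 in AdipoKO_BAT 1 and 0.092 in AdipoKO_BAT 2+3+4. Fibroblast and progenitor markers, of which all 10 were measured, summed to 113 to 116 in CTL_WAT, 74.7 to 90.9 in AdipoKO_WAT, 80.3 to 92.4 in CTL_BAT and 75.9 to 80.9 in AdipoKO_BAT. Lymphocyte markers, 10 of 10 measured, summed to 9.68 to 43.9 in CTL_WAT, 27.7 to 206 in AdipoKO_WAT, 1.88 to 37.0 in CTL_BAT and 34.1 to 114 in AdipoKO_BAT. No marker of these lists was below background on all arrays.

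Of the 40 collagens, 25 had a lower mean in white knockout and 34 in brown knockout, where 52.3% and 59.9% of all genes did. The white median was -0.49, though 0.17 without AdipoKO_WAT 2+3+4 and -0.065 with normexp background correction. The brown median was -0.53, though -0.098 on the authors' unscaled values, where the median over all genes was 0.31. The fibrillar chains form the load-bearing fibrils, and 7 of 11 had a lower mean in white and 9 of 11 in brown fat, with medians of -0.91 and -0.67. Col1a1, the main chain of type I collagen, lay at 4.59 and 4.91 in CTL_WAT, 4.39 and 3.29 in AdipoKO_WAT, 4.42, 4.51 and 5.40 in CTL_BAT and 3.85 and 3.98 in AdipoKO_BAT. Both knockout groups lay below all their controls, closely so in AdipoKO_WAT 1, and the differences were -0.91 ± 0.46 (SE) and -0.86 ± 0.42 (limma adjusted p = 0.526 and 0.619). Its partner Col1a2 differed by -0.53 ± 0.35 and -0.75 ± 0.32 (limma adjusted p = 0.619 in brown fat), and its white groups overlapped by array. Col3a1, the type III chain that mixes with type I in soft tissue, lay at 5.79 and 6.07 in white control, 5.55 and 4.27 in white knockout, 5.72, 6.05 and 6.46 in brown control and 5.45 and 5.29 in brown knockout. No knockout value reached the lowest control of its tissue, and the differences were -1.02 ± 0.44 and -0.70 ± 0.40.

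Type V collagen starts the assembly of type I fibrils, and all 3 of its chains lay lower in both tissues. Col5a3 had the lowest unadjusted p among collagens in white fat. Its levels were 4.74 and 4.43 in CTL_WAT, 3.48 and 2.70 in AdipoKO_WAT, 4.27, 4.17 and 4.52 in CTL_BAT and 3.15 and 3.96 in AdipoKO_BAT. Each knockout sample lay below each control sample of its tissue, AdipoKO_WAT 1 included, at a difference of -1.49 ± 0.37 in white (limma adjusted p = 0.406) and -0.77 ± 0.34 in brown fat (adjusted p = 0.619). Col5a1 differed by -1.14 and -0.67, and Col5a2 by -1.20 and -0.51. Among the fibrillar chains known from cartilage, Col2a1 differed by -1.0 ± 0.56 in white and -0.59 ± 0.51 in brown fat. Col11a2 lay higher on all white knockout arrays (0.97 ± 0.50) and overlapped in brown fat (0.14 ± 0.45), Col11a1 differed by 0.29 ± 0.85 and -1.06 ± 0.77, and Col27a1 by 0.72 ± 0.82 and 0.27 ± 0.75. Col24a1 differed by 0.60 ± 0.62 and -0.53 ± 0.57. Of 6 listed cartilage and tendon markers, 4 were measured, and Matn1 was below background on all arrays. Of the 4 measured, 3 had a higher mean in brown than in white control, with 1 called higher (limma adjusted p = 0.0215). In the knockouts 3 of 4 had a lower mean in white and 4 of 4 in brown fat. The part of these markers in the differences of the fibrillar chains was not tested.

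All 6 type IV chains had lower means in both tissues (medians -1.24 and -0.68). Col4a1 and Col4a2, neighbouring genes whose chains form the common basement membrane network, behaved alike. Col4a1 lay at 3.91 and 3.77 in white control and at 3.60 and 1.73 in white knockout, and at 3.31, 3.22 and 3.63 in brown control and 2.62 and 2.67 in brown knockout. Col4a2 lay at 3.94 and 3.82 and 3.33 and 1.64 in those white groups and at 3.09, 2.91 and 3.53 and 2.43 and 2.45 in the brown ones. In both genes AdipoKO_WAT 1 was nearer to the controls than AdipoKO_WAT 2+3+4, while the brown knockout samples were nearly equal. The differences were -1.18 ± 0.54 and -0.74 ± 0.50 for Col4a1, and -1.40 ± 0.51 (limma adjusted p = 0.467) and -0.74 ± 0.47 for Col4a2. Col4a3, a chain of specialised membranes such as that of the kidney, was dim: it was not well above background in AdipoKO_WAT and at least 1.19-fold higher in CTL_WAT, where the bound is the control mean over the higher of the dim probe's signal and the lowest signal above background. In brown fat it was well above background on 4 of 4 control arrays and on 1 of 4 knockout arrays, so its lower mean there has no exact size. The remaining chains differed by -0.052 and -0.10 (Col4a4), -0.95 and -0.51 (Col4a5, above background on 2 of 4 AdipoKO_WAT arrays) and -1.46 and -0.63 (Col4a6), and the Col4a6 value in white fat was 0.18 without AdipoKO_WAT 2+3+4.

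The type VI chains Col6a1, Col6a2 and Col6a3, which form the filaments around adipocytes, had lower means in both tissues. Col6a1 lay at 2.48 and 2.45 in CTL_WAT, 2.12 and 0.34 in AdipoKO_WAT, 1.86, 2.07 and 2.42 in CTL_BAT and 1.10 and 1.71 in AdipoKO_BAT, below all controls in each knockout sample. Its differences were -1.23 ± 0.55 and -0.71 ± 0.50, those of its neighbour Col6a2 -1.15 ± 0.56 and -0.53 ± 0.51, and those of Col6a3 -0.83 ± 0.53 and -0.71 ± 0.48, where AdipoKO_WAT 1 was level with the controls. Col6a4 had the largest positive difference of any member in both tissues (2.10 ± 1.20 and 1.73 ± 1.09), but the CTL_WAT samples lay at -3.95 and -1.29 and the AdipoKO_WAT samples at -1.80 and 0.75, so the groups overlapped, and its probes disagreed in sign in white fat. The neighbouring Col6a5 differed by 1.47 ± 1.45 and -0.81 ± 1.32. The multiplexins Col15a1 and Col18a1 link basement membranes to the tissue beside them, and Col18a1 is the source of endostatin. Col18a1 lay at 3.85 and 3.81 in white control, 3.69 and 1.96 in white knockout, 3.03, 3.04 and 3.32 in brown control and 2.13 and 2.59 in brown knockout, with differences of -1.0 ± 0.52 and -0.77 ± 0.47. Col15a1 differed by -0.99 ± 0.42 in white (limma adjusted p = 0.50) and -0.11 ± 0.38 in brown fat.

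Collagens that sit on fibrils or span the membrane had no common direction in white fat. Of the 8 fibril-associated chains (FACIT collagens) 3 had a lower mean in white fat (median 0.19) and 8 in brown fat (median -0.50). Col22a1, found at tissue junctions such as those between muscle and tendon, lay at -4.56 and -4.32 in CTL_WAT, -4.21 and -3.22 in AdipoKO_WAT, -0.33, 0.29 and 1.65 in CTL_BAT and -1.01 and -1.65 in AdipoKO_BAT. The brown knockout samples were below all brown controls (-1.87 ± 0.59, limma adjusted p = 0.619), in the samples where the muscle marker sum was also lower, whose part was not tested. The largest positive difference of this class in white fat was that of Col9a2 (0.93 ± 0.59), and Col20a1 differed in brown fat by -0.0091. Col19a1 had the lowest mean difference of the class in white fat, but it was above background on 1 of 4 AdipoKO_WAT arrays, and without AdipoKO_WAT 2+3+4 the difference was 0.37. Of the membrane-spanning and remaining chains, 2 of 5 had a lower mean in white and 3 of 5 in brown fat. Col26a1 was the member with an unadjusted p under 0.05 in the higher direction in white fat: it lay at -5.10 and -4.33 in the controls and -2.85 and -2.89 in the knockouts, a difference of 1.84 ± 0.63 (limma adjusted p = 0.458). In brown fat its groups overlapped (-0.15 ± 0.58). Col23a1 differed by 0.99 ± 0.43 and 0.70 ± 0.39, and Col25a1 by -0.45 ± 0.36 and 0.55 ± 0.33. The network-forming Col8a1 and Col8a2, known from vessel walls and the cornea, differed by -0.70 ± 0.75 and -0.21 ± 1.38 in white fat and by 0.0073 ± 0.68 and -0.41 ± 1.26 in brown fat.

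**Figure D2:**
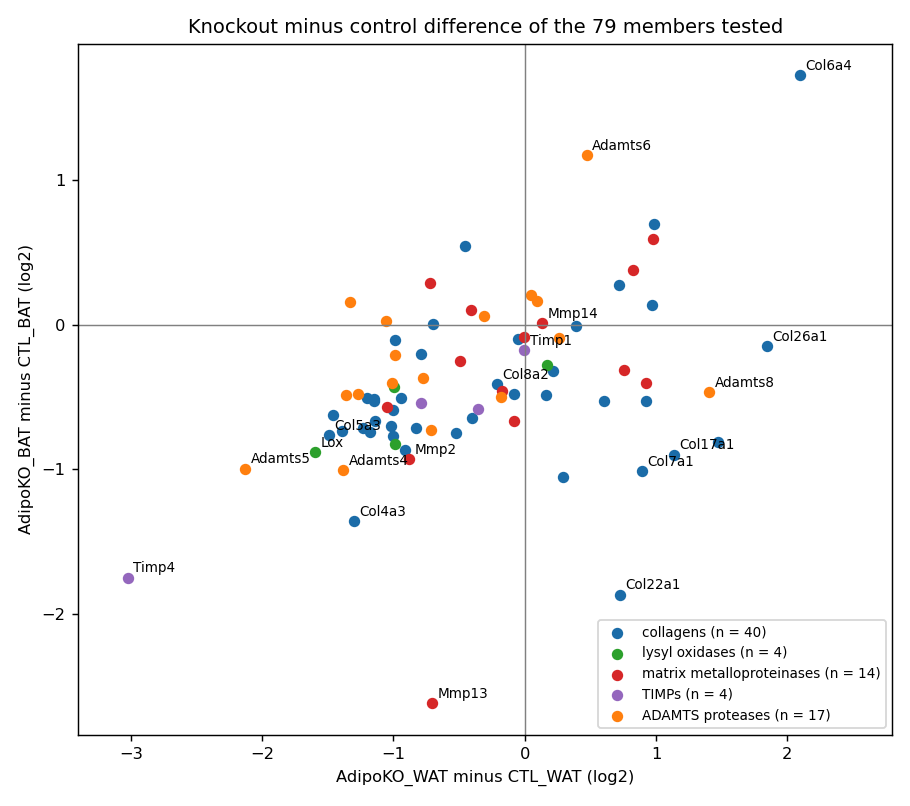
Knockout minus control difference (log2) of the 79 members in white fat (horizontal axis) and brown fat (vertical axis), 1 point per gene, coloured by family, each fitted over 2 to 3 samples a group. Timp4 lay farthest to the left (-3.02 in white and -1.75 in brown fat) and Col6a4 farthest to the upper right (2.10 and 1.73), while Mmp14 and Timp1 lay near 0 on both axes. Points of Col4a3 in white fat and of Mmp13 and Mmp16 in brown fat show measured means of a knockout group not well above background, so their distances are not exact.

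Of the lysyl oxidases, which cross-link collagen and elastin, 3 of 4 had a lower mean in white and 4 of 4 in brown fat, with medians of -0.99 and -0.63. In AdipoKO_WAT 1 their median was -0.0068 and in AdipoKO_WAT 2+3+4 it was -1.98. Lox, the founding member of the family, lay at -0.45 and -0.52 in CTL_WAT, -1.27 and -2.88 in AdipoKO_WAT, -0.99, -1.03 and -0.75 in CTL_BAT and -1.99 and -1.62 in AdipoKO_BAT. The controls of each tissue were close together and every knockout sample was below them, AdipoKO_WAT 1 included. Its differences were -1.59 ± 0.48 in white (limma adjusted p = 0.432) and -0.88 ± 0.44 in brown fat (adjusted p = 0.619). Loxl1, which acts on elastin, lay at 2.67 and 2.61, 2.56 and 0.72, 1.96, 2.12 and 2.03 and 1.69 and 1.52 in the same order of groups, lower by small margins in AdipoKO_WAT 1 and in both brown knockout samples (-1.0 ± 0.52 and -0.43 ± 0.48). Loxl2 differed by -0.99 ± 0.59 and -0.82 ± 0.54, with AdipoKO_WAT 1 above its controls. Loxl3 was the exception in white fat, at 0.17 ± 0.20 there and -0.28 ± 0.19 in brown fat. On the authors' unscaled values these were -0.032 and 0.15, where the medians over all genes were -0.23 and 0.31.

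Of the MMPs, which cut collagen and other matrix proteins, 9 of 14 had a lower mean in each tissue. Of all genes, 52.3% did in white and 59.9% in brown fat, so the brown count was near the share of all genes. The MMP medians were -0.13 in white and -0.28 in brown fat, the latter 0.15 on the authors' values without scaling (median over all genes there 0.31). Of the gelatinases, Mmp2 lay at 1.11 and 1.14 in CTL_WAT, 0.69 and -0.20 in AdipoKO_WAT, 1.16, 1.42 and 1.66 in CTL_BAT and 0.34 and 0.63 in AdipoKO_BAT. It was below all controls in each knockout sample of both tissues, by -0.88 ± 0.33 and -0.93 ± 0.30, with limma adjusted p of 0.478 and 0.619. Mmp14, the membrane-type MMP that activates the Mmp2 proenzyme, lay between 2.75 and 3.12 in all 9 samples, with differences of 0.13 ± 0.20 and 0.0090 ± 0.18. The other gelatinase, Mmp9, differed by -0.18 ± 0.33 and -0.46 ± 0.30.

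The stromelysin Mmp3 and the collagenase Mmp13, both with an AP-1 site in the sequences above, had lower means in brown knockout. Mmp3 lay at 2.59, 2.89 and 2.40 in CTL_BAT and 2.04 and 1.90 in AdipoKO_BAT, without overlap (-0.66 ± 0.26, limma adjusted p = 0.619), and at 0.76 and 0.62 and 0.27 and 0.93 in the white groups, which overlapped (-0.085 ± 0.29). Mmp13 lay at -4.94, -5.16 and -2.09 in CTL_BAT and was not well above background in AdipoKO_BAT, so it was at least 4.17-fold higher in the controls (limma adjusted p = 0.619), a bound in which CTL_BAT 4 stands apart from the other controls. In white fat it was above background on 4 of 4 control and 1 of 4 knockout arrays. Mmp10 and Mmp7 had the same motif but were above background on 2 and 3 of 4 CTL_WAT arrays. They differed by 0.92 ± 0.41 and 0.98 ± 0.84 in white and by -0.40 ± 0.37 and 0.60 ± 0.76 in brown fat. The Mmp7 difference was -0.066 in white fat without AdipoKO_WAT 2+3+4 and -0.49 in brown fat with normexp background correction. Mmp3, Mmp13, Mmp10 and Mmp7 thus had no common direction. Mmp12, the macrophage elastase, was above background on 1 of 16 arrays and was not tested. Mmp19 had the largest negative difference among MMPs in white fat (-1.05 ± 0.51), and Mmp11, Mmp15, Mmp16, Mmp17, Mmp23 and Mmp28 lay between -0.72 and 0.82 there.

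The TIMPs block MMP activity, and all 4 had lower means in both tissues, although 1 of them, Timp1, was close to 0. Timp4, a member with a narrow tissue range that includes fat and heart, had the largest negative difference of all 79 members in white fat. It lay at 3.12 and 2.87 in CTL_WAT, 1.06 and -1.11 in AdipoKO_WAT, 2.70, 2.22 and 2.81 in CTL_BAT and 1.22 and 0.44 in AdipoKO_BAT. Every knockout sample was lower than every control sample of its tissue, AdipoKO_WAT 1 and AdipoKO_BAT 1 included. The differences were -3.02 ± 0.66 (SE) in white fat, 8.12-fold (limma adjusted p = 0.345), and -1.75 ± 0.60 in brown fat, 3.36-fold (adjusted p = 0.619). Timp3, which stays bound to the matrix, lay at 4.06 and 4.24 in CTL_WAT and 4.15 and 2.58 in AdipoKO_WAT, so only AdipoKO_WAT 2+3+4 left the control range, and at 3.05, 3.12 and 3.57 and 2.65 and 2.75 in brown fat, where the groups did not overlap (-0.79 ± 0.48 and -0.54 ± 0.44). Timp2 differed by -0.35 ± 0.40 and -0.58 ± 0.37, and in white fat by 0.24 without AdipoKO_WAT 2+3+4. Timp1, the form induced in injury and inflammation, lay between -0.27 and 0.61 in all samples, with differences of -0.0047 and -0.18 and overlapping groups in both tissues.

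Of the 17 ADAMTS proteases, 12 had a lower mean in white fat (median -0.78) and 11 in brown fat (median -0.36). Of all genes, 52.3% did in white and 59.9% in brown fat, so the brown count was near the share of all genes. On the authors' unscaled values the brown median was 0.065, where the median over all genes was 0.31. Adamts5, an aggrecanase that cuts the proteoglycans aggrecan and versican, had the lowest unadjusted p of all members in white fat. Its level was 3.95 and 3.12 in CTL_WAT, 1.99 and 0.83 in AdipoKO_WAT, 2.71, 2.98 and 2.82 in CTL_BAT and 1.61 and 2.08 in AdipoKO_BAT. All knockout samples were below all controls of their tissue, by -2.13 ± 0.44 in white (limma adjusted p = 0.302) and -1.0 ± 0.40 in brown fat (adjusted p = 0.619). The second aggrecanase, Adamts4, lay at -3.12 and -3.44, -3.98 and -5.35, -3.38, -3.47 and -3.65 and -4.39 and -4.62 in the same order of groups, with differences of -1.38 ± 0.43 and -1.01 ± 0.39, and was above background on 2 of 4 AdipoKO_WAT arrays. Adamts1, a neighbour of Adamts5 on its chromosome that also cuts versican, differed by -0.72 ± 0.37 and -0.73 ± 0.34, with AdipoKO_WAT 1 within the range of its controls. The procollagen N-proteinase Adamts2 lay at 4.89 and 4.41 in CTL_WAT and 4.20 and 2.37 in AdipoKO_WAT (-1.36 ± 0.60), and differed by -0.48 ± 0.55 in brown fat. Adamts12 differed by -1.06 ± 0.39 in white fat (limma adjusted p = 0.468) and by 0.024 in brown fat, where its other probe differed by -0.83.

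In the other direction, Adamts8 had the largest positive difference of the family in white fat (1.40 ± 1.05), at 1.52 and -0.74 in the knockouts against -1.15 and -0.88 in the controls. That difference rested on AdipoKO_WAT 1 and was 0.27 without that sample. There Myh11, 1 of 5 smooth muscle and pericyte markers, lay at 6.49 against 2.76 and 2.84 in the controls. Of those 5 markers, 4 had a higher and 1 a lower mean in white knockout, and their part was not tested. Adamts6 was the member with a higher value on all brown knockout arrays, at -4.40 and -3.48 against -4.59, -5.33 and -5.41 (1.18 ± 0.43, limma adjusted p = 0.619), but the difference was -0.27 with normexp background correction. The remaining ADAMTS genes lay between -1.33 (Adamts16) and 0.26 (Adamts18) in white fat and between -0.50 (Adamts14) and 0.21 (Adamts7) in brown fat.

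In 15 of 79 members all knockout arrays lay below all control arrays in both tissues, where 6.9% of all genes did, and in 0 members above them, where 2.84% of all genes did. The 15 were 9 collagens (Col1a1, Col3a1, Col5a1, Col5a2, Col5a3, Col4a1, Col4a2, Col6a1 and Col18a1), Lox and Loxl1, Mmp2, Timp4, Adamts4 and Adamts5. Their white differences ranged from -3.02 (Timp4) to -0.88 (Mmp2) and their brown differences from -1.75 (Timp4) to -0.43 (Loxl1). Without AdipoKO_WAT 1 the count was 22 (12.3% of all genes), without AdipoKO_WAT 2+3+4 it was 16 (8.25%), and without CTL_BAT 2+3 it was 19 (9.55%). Leaving a sample out can only add genes to such a count. AdipoKO_WAT 1 lay nearer to the controls than AdipoKO_WAT 2+3+4 in all 15 genes, from -0.080 (Loxl1) to -1.94 (Timp4) below the control mean, against -1.33 (Mmp2) to -4.11 (Timp4).

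**Figure D3:**
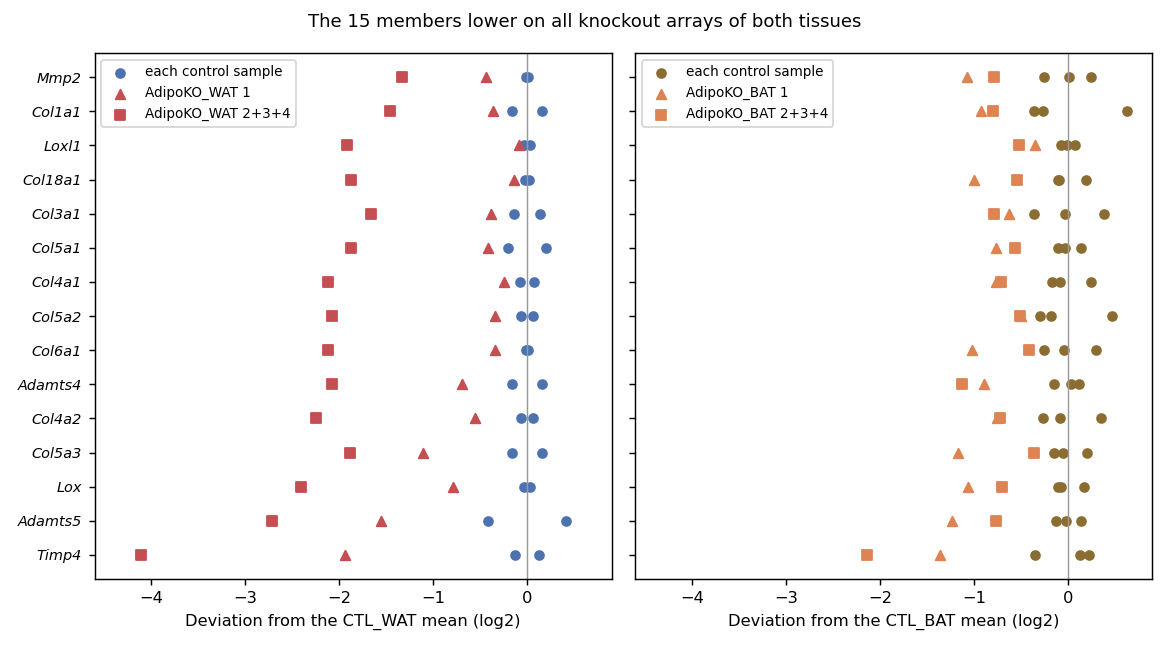
Deviation from the control mean of the same tissue (log2, horizontal axis) of the 15 members whose knockout arrays all lay below all control arrays in both tissues, with white fat at left and brown fat at right. Circles are control samples, and triangles and squares the knockout samples; in white fat AdipoKO_WAT 2+3+4 lay between -1.33 and -4.11, while AdipoKO_WAT 1 lay between -0.080 and -1.94.

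**Figure D4:**
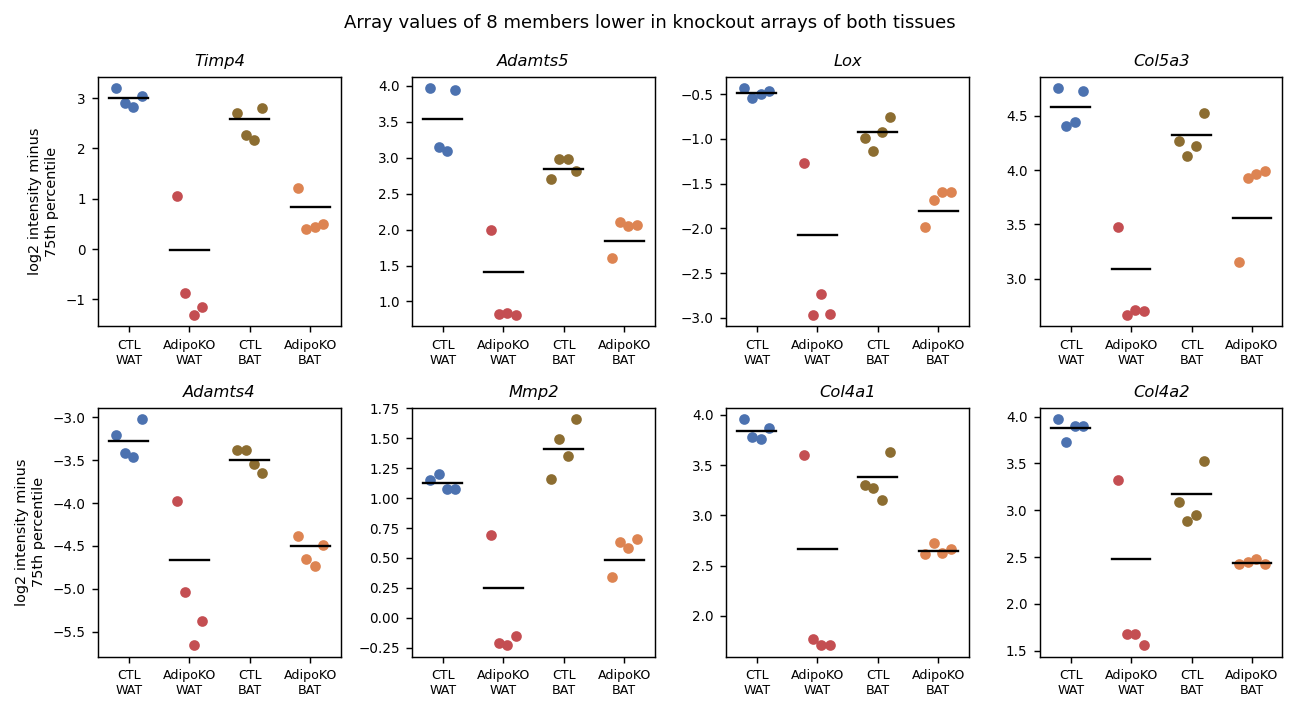
Level of 8 of those 15 members on each of the 16 arrays (vertical axis, log2 intensity minus the array's 75th percentile) by group, with a bar at the mean of the distinct samples. AdipoKO_WAT arrays 2, 3 and 4 lay close together and below array 1 in all 8 genes.

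Whether the knockout differences themselves differed between tissues was tested as the brown minus the white difference. No member passed the limma test (0% of all genes passed), and 4 of 79 had an unadjusted p under 0.05 (5.06%), where 402 of 15469 genes did (2.60%). All 4 (Col7a1, Col22a1, Col17a1 and Mmp10) had higher means in white knockout and lower means in brown knockout. Col7a1, which forms the anchoring fibrils of skin, lay at -0.80 and -0.86 in CTL_WAT, 0.36 and -0.24 in AdipoKO_WAT, 2.72, 3.02 and 2.99 in CTL_BAT and 2.45 and 1.35 in AdipoKO_BAT. All white knockout arrays were above their controls (0.89 ± 0.39) and all brown knockout arrays below theirs (-1.01 ± 0.35), and the difference between the effects was -1.90 ± 0.53. The same quantity was -2.59 ± 0.88 for Col22a1, -2.03 ± 0.76 for Col17a1, a collagen of epithelial attachment plaques, -1.33 ± 0.56 for Mmp10, -1.99 ± 0.86 for Col26a1 and 1.08 ± 0.53 for Adamts12. The Adamts12 value changed sign with normexp background correction (-0.47). The smallest adjusted p was 1.0.

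Between tissues, 6 of 79 members differed in the controls at an adjusted p of 0.05 by limma, where 5.09% of all genes did. No slide held both CTL_WAT and CTL_BAT arrays, so this comparison also runs between slides. With the slide as a fixed block on all 16 arrays, which links these slides only through the knockout groups, the same 6 members were called and 4.69% of all genes. That fit counts arrays of 1 distinct sample separately. Higher in brown control were Col22a1, Col7a1, Col17a1 and Mmp3, and lower were Mmp23 and Col14a1. Col22a1 lay at -4.56 and -4.32 in CTL_WAT and -0.33, 0.29 and 1.65 in CTL_BAT, a difference of 4.97 ± 0.59 (adjusted p = 0.00537). Col7a1 differed by 3.74 ± 0.35 (adjusted p = 0.00184 by limma) and Col17a1, at -4.53 and -3.91 against -1.49, -0.37 and -0.62, by 3.39 ± 0.51 (adjusted p = 0.0145). The brown samples that carried these levels also carried the skeletal muscle markers named above (7 of 7 tested, all higher by the same test), whose part in the result was not tested. Mmp3 differed by 1.94 ± 0.26 (adjusted p = 0.00921 by limma). Some members not called had probes that disagreed: Col24a1 differed by -0.20 on the probe used and by 4.10 on its other probe. Probes of Adamts12 and Col4a6, among others, also had opposite signs. With the mean of all kept probes the same 6 members were called, and 5.18% of all genes.

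Mmp23, a membrane-anchored MMP, lay at 1.41 and 1.43 in CTL_WAT and -0.58, -0.73 and -0.56 in CTL_BAT (-2.04 ± 0.26, limma adjusted p = 0.00699). Col14a1, a fibril-associated chain, lay at 3.02 and 3.25 and 0.74, 1.19 and 1.57 (-1.96 ± 0.31, adjusted p = 0.0172). Neither overlapped between the tissues. As families, 15 of 17 ADAMTS proteases, all 4 lysyl oxidases and all 4 TIMPs had lower means in brown than in white control. Their medians were -0.46, -0.52 and -0.63. Of the collagens 22 of 40 were lower (median -0.21), and of all genes 8537 of 15469 (median -0.086). Without CTL_BAT 2+3 the calls were 4 (Col22a1, Col7a1, Mmp23 and Mmp3), and without either white control sample Col7a1 alone was called.

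In the knockouts, 0 of 79 members differed between the tissues by limma, where 1.51% of all genes did, with a lowest adjusted p of 0.0552 (Mmp23) and 14 members at an unadjusted p under 0.05 (17.7%, against 15.3% of all genes). Mmp23 lay at 0.91 and 1.12 in AdipoKO_WAT and -0.91 and -0.13 in AdipoKO_BAT (-1.53 ± 0.28), Loxl3 differed by -1.09 ± 0.20, Mmp3 by 1.36 ± 0.29, Col7a1 by 1.84 ± 0.39 and Col14a1 by -1.38 ± 0.34. The replicate numbers were taken to pair the knockout arrays of the 2 tissues, which for numbers 2, 3 and 4 could not be checked. With these numbers as a block on all 16 arrays, 16 of 79 members were called, 9 lower and 7 higher in brown. Of all genes, 25.3% were called by that fit. That fit also counts arrays of 1 distinct sample separately, and the same 16 arrays without the block gave 19 calls. No slide held both AdipoKO_WAT and AdipoKO_BAT arrays, so this comparison also runs between slides. Both tissue comparisons use the same 4 groups as the knockout comparisons, so they are not independent of them.

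**Figure D5:**
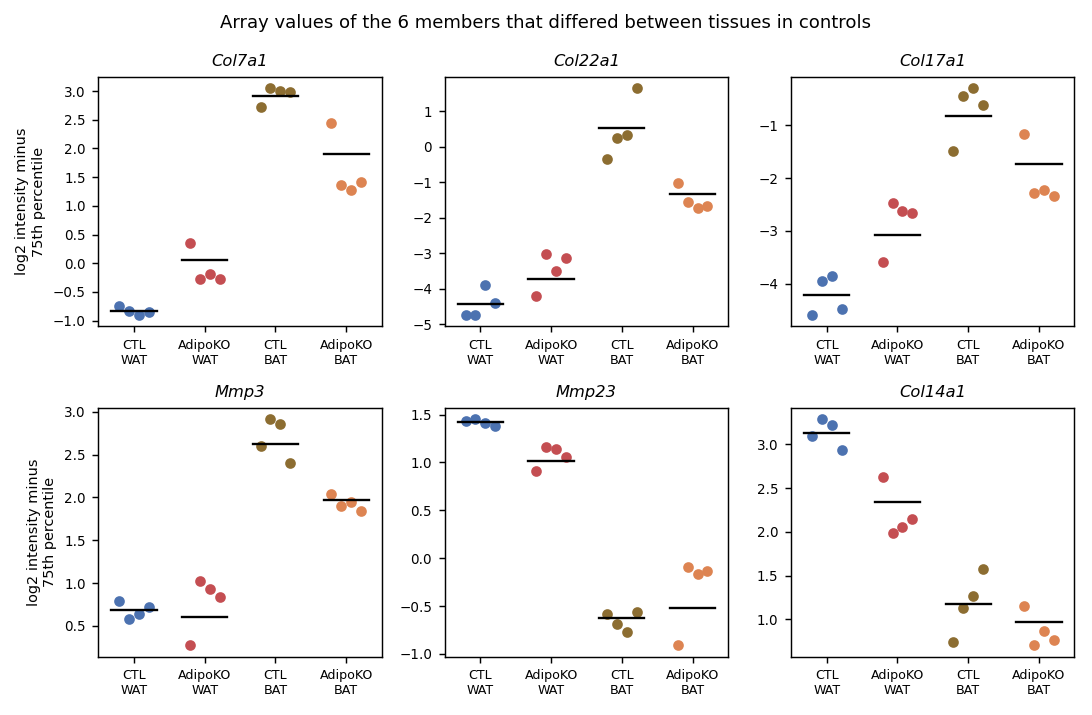
Level of the 6 members that differed between the tissues in controls on each of the 16 arrays (vertical axis, log2 intensity minus the array's 75th percentile), by group, with a bar at the mean of the distinct samples. Col7a1, Col22a1, Col17a1 and Mmp3 lay higher in brown fat of both genotypes, and Mmp23 and Col14a1 lower.

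Genes that work with the members were counted from 5 lists, and 0 genes of any list passed the limma test in either knockout comparison. Of all genes, 52.3% had a lower mean in white knockout and 59.9% in brown knockout. Of 22 measured collagen biosynthesis genes, 18 had a lower mean in white fat (median -0.51; 7 lower and 0 higher at an unadjusted p under 0.05) and 20 in brown fat (median -0.47; 2 and 0). Plod1, a lysyl hydroxylase, differed by -1.29 ± 0.38 and -0.69 ± 0.35, P3h1, a prolyl 3-hydroxylase, by -1.09 ± 0.31 and -0.62 ± 0.28, and Serpinh1, the collagen chaperone, by -0.86 ± 0.33 and -0.77 ± 0.30. Pcolce, which speeds the release of procollagen C-propeptides, differed by -0.50 ± 0.25 and -0.60 ± 0.23. The list's median was -0.20 in AdipoKO_WAT 1, -1.21 in AdipoKO_WAT 2+3+4, -0.33 in AdipoKO_BAT 1 and -0.56 in AdipoKO_BAT 2+3+4. The median of the collagens was 0.17, -1.26, -0.49 and -0.52 in the same order, so its sign differed from the list's in AdipoKO_WAT 1.

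Of 7 measured collagen receptors, 5 had a lower mean in white fat (median -0.39) and 6 in brown fat (median -0.43), with 1 gene in white and 0 in brown fat at an unadjusted p under 0.05. The integrin chain Itga11 differed by -1.04 ± 0.52 and -0.89 ± 0.47, the uptake receptor Mrc2 by -0.40 ± 0.32 and -0.64 ± 0.30, and the platelet receptor Gp6 by -0.76 ± 0.26 and -0.50 ± 0.24. Other matrix proteins lay lower in 25 of 30 in white fat (median -0.91; 8 lower and 2 higher at an unadjusted p under 0.05) and in 28 of 30 in brown fat (median -0.62; 3 and 0). The small proteoglycans Bgn and Lum, which bind fibrils, differed by -0.89 ± 0.25 and -0.72 ± 0.39 in white and by -0.67 ± 0.23 and -0.96 ± 0.36 in brown fat. Tnc, a glycoprotein of remodelling tissue, lay at -3.19 and -1.85 in CTL_WAT and 0.30 and -0.12 in AdipoKO_WAT, higher in both knockout samples (2.61 ± 0.55, limma adjusted p = 0.302), and differed by 0.58 ± 0.50 in brown fat. Between tissues, Fbln1 (-2.61 ± 0.54, limma adjusted p = 0.0424) was lower and Spp1 (2.55 ± 0.56, adjusted p = 0.050) higher in brown control, and Emilin1 was lower in brown knockout (-2.05 ± 0.29, adjusted p = 0.0191), 3 genes named after their values were seen.

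Of 18 genes of TGF-beta signalling, the main inducer of collagen genes, 11 had a lower mean in white fat (median -0.21) and 12 in brown fat (median -0.15). Both counts were not far from the shares of all genes (52.3% and 59.9%). At an unadjusted p under 0.05 there were 1 and 0 genes. Ltbp3, which stores the latent ligand, differed by -1.07 ± 0.44 in white fat, the coreceptor Tgfbr3 by -0.55 ± 0.30, and in brown fat the inhibitor Smad7 by 0.78 ± 0.41 and the signal transducer Smad3 by -0.63 ± 0.40. Of 10 genes that activate or inhibit matrix proteases, 8 had a lower mean in each tissue (medians -0.69 and -0.51). Plau, the urokinase that starts plasmin formation, differed by -1.14 ± 0.39 in white fat, its receptor Plaur by 0.98 ± 0.48 in brown fat, and Furin, which removes the propeptides of membrane-type MMPs, by -0.58 ± 0.24 and -0.52 ± 0.22.

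Of the members on the array, 13 did not pass the filter on dim probes, which asked for every array of some group to read well above background. Col6a6, Mmp1a, Mmp8, Mmp20 and Mmp21 were above background on 0 of 16 arrays, Adamts13, Col28a1 and Mmp12 on 1, Col10a1 on 2, Loxl4 on 3, Col9a1 and Mmp24 on 6 and Mmp25 on 9. Since a dim gene could pass through the group in which it was high, the counts above describe the 79 measured members and not all 92. Adamts17, Mmp1b and Mmp27 had no probe with a matching name. Of the 32 members with several probes, the probes disagreed in sign in white fat for Adamts14, Col6a4 and Mmp14 and in brown fat for Adamts12, Col11a2, Col23a1, Col8a1, Mmp14, Mmp17 and Timp1.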

How the data were processed

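Total RNA of 16 samples was hybridised to one-colour Agilent arrays with Cy3, per the labels. The scanner files hold intensity per spot as deposited, made with Agilent Feature Extraction 12.0.0.7 per the file headers, and the authors' value table holds the same processed intensity averaged per probe (largest relative difference 5.00e-06). Flag columns of the deposited files marked outlier, saturated and background spots.

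Outlier and control spots were dropped, spots of a probe averaged, and log2 processed intensity centred on the 75th percentile of each array. Accessions were matched to RefSeq symbols: 28223 of 41174 probes had a name (19096 genes) and 12951 had none. A gene was kept (15469) where a probe read well above background on every array of some group, and its brightest such probe was used. The labels call the 4 arrays of a group biological replicates, but in 9 of 24 within-group pairs the arrays differed by less than the scanner's error over 10067 bright probes (ratio 0.37 to 0.66, against 1.10 to 4.28 in the other pairs). These were averaged and counted as 1 sample, which left 9 samples and 5 residual degrees of freedom. On the 7728 probes brighter than the 75th percentile on every array, CTL_WAT 3 and 4, counted as different samples, had a ratio of 0.998. The separation of the white control samples is therefore close to the limit of 1. P-values measure the spread between the 9 samples, which may be technical. All 4 groups were fitted with limma 3.58.1 in R 4.3.3, with Benjamini-Hochberg adjustment over all genes tested in each of 5 contrasts and a threshold of 0.05, and figures were drawn with matplotlib 3.10.9. On simulated data with 100 genes changed by 2 and 100 by 4 on the log2 scale between the tissues, among 15469 genes, 63% and 97% were recovered. There were 10 false calls. The simulation gave each gene the same spread in all groups, which the data did not always have. For example, Col4a1 had an SD of 1.32 in AdipoKO_WAT and 0.10 in CTL_WAT. The shares recovered therefore do not carry over to the knockout comparisons.

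The members and lists were chosen with earlier results of these data known. Named genes were up to 8 members a direction past the threshold between tissues, the 6 of smallest p in each knockout contrast and the interaction, the largest fall and rise of each family and collagen class, the members apart on all arrays in both tissues, a fixed list of 21 matrix genes, Nr3c1 and up to 2 genes a pathway list. Other genes named above were chosen after their values were seen. Same-numbered AdipoKO_WAT and AdipoKO_BAT arrays deviated together from their group means (correlations 0.57, 0.43, 0.47 and 0.29), so these numbers were taken to pair them. No other pair of groups met that rule. Arrays 2, 3 and 4 are 1 distinct sample in each of these knockout groups. The correlations therefore mostly repeat the contrast of array 1 with the others, and cannot show whether numbers 2, 3 and 4 pair. Alternatives were the arrays counted separately, random, replicate and slide blocks, unscaled and quantile-normalised values, normexp (offset 50, on the median signal, since the mean signal was not in the columns used here), no filter, the mean of probes and each sample left out. The white control arrays as 1 sample and the array counts without each sample were added after seeing the data.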

Additional observations from a re-analysis of the deposited data

Results flagged for a closer look

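Col7a1 stood out because its knockout difference had opposite directions in the tissues: all white knockout arrays lay above their controls and all brown knockout arrays below theirs. The brown minus the white difference was -1.90 ± 0.53 (SE, limma adjusted p = 1.0).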

How the results depend on the processing

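Members called by limma depended on how arrays were counted. With 16 arrays as separate samples, 48 members were called in white knockout, 18 in brown knockout, 7 in the difference between them, 24 between the tissue controls and 19 between the tissue knockouts; with the replicate block the counts were 48, 18, 3, 23 and 16. The shares of all genes called were 44.8%, 30.6%, 4.14%, 39.3% and 25.8% with separate arrays and 46.1%, 32.2%, 2.10%, 40.0% and 25.3% with the block, so the members' share was above that of all genes in the white knockout and was not in the brown knockout. The arrays of a group that were alike enter those fits several times. A random block for the distinct sample gave 3 in white knockout (Adamts5, Col5a3 and Timp4) and 5 between the knockouts, and a slide block gave 3 and 1. Between the knockouts the authors' unscaled values gave 2 and quantile normalisation 1. White control arrays as 1 sample, added after seeing the data, left 1 call between the controls. Leaving out each sample gave 0 to 26 calls in white knockout (26 without AdipoKO_WAT 1, where 11.0% of all genes were called), 1 to 9 between the controls (1 without either white control sample, 9 without either white knockout sample, where 11.4% were) and 0 to 12 between the knockouts (12 without AdipoKO_WAT 2+3+4, where 6.66% were, 2 without AdipoKO_WAT 1 and 2 without AdipoKO_BAT 2+3+4). The causes were not tested. Of 91 named differences, 66 kept their sign in all settings, and 0 called differences changed sign. On the authors' unscaled values the median difference of all genes was -0.23 in white and 0.31 in brown fat, against -0.032 and -0.12 with scaling. A group left with 1 sample is assumed to vary like the others. Members not well above background in a group have only a bound there.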
